A study of Rattus norvegicus with 12 samples.

Results

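AP-1 is a family of transcription factors that bind DNA as pairs, and 10 of its genes were followed here: the Fos family (Fos, Fosb, Fosl1 and Fosl2), the Jun family (Jun, Junb and Jund), and the related factors Atf3, Batf and Maff. The genes were chosen by name, with earlier results of these data known. They were read by every probe set that the array annotation assigns to exactly 1 gene with a symbol from this list. All 10 were on the array, out of 14217 genes with such a probe set, and 16 probe sets stood for them. The mRNA came from the left hemisphere of 12 Sprague-Dawley rats, all males of 8 weeks, each on an array of its own. The MCAO group (7 rats) underwent occlusion of the middle cerebral artery followed by reperfusion, which models ischemic stroke, and the Sham group (5 rats) a sham operation. Brains were sampled 24 h into reperfusion. The labels do not say which side was occluded, for how long, or how large the lesions were. The tissue is a whole hemisphere, so fewer cells of a type and less RNA per cell cannot be told apart.

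Fos and Jun proteins carry a basic DNA-binding stretch followed by a leucine zipper, through which the subunits join in pairs. Jun proteins can pair with themselves or with Fos proteins, whereas Fos proteins need a Jun partner. Fos, Fosb, Jun and Junb are immediate early genes, switched on within minutes of a stimulus without new protein synthesis; in neurons they are well known as markers of strong firing, and kinases of the MAP kinase group act upstream of them. Fosl1, Atf3 and Maff are known more for cell stress, injury and cytokine signals. Atf3 and Jun are classic markers of injured neurons.

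The study states a single comparison, MCAO against Sham, which asks how brain mRNA levels differ after the occlusion. Of the 10 genes, 8 were higher in MCAO and 0 were lower (limma, Benjamini-Hochberg adjusted p below 0.05 over 12153 genes tested, with 0 lower also at an unadjusted p below 0.05). The share of all tested genes called higher was 22.2%, 22.1% were called lower and 44.3% were called in either direction. One of the 8, Batf, was near-constant in the deposited values and its call is not read as a change. That left 7 higher of 9 varying genes, against 35.2% higher and 34.2% lower among all varying genes tested. The members were chosen with earlier results of these data known, and Atf3, Fosl1 and Maff passed the filter only through MCAO. The counts in this paragraph therefore describe the list and are no independent support. Called and at least 2-fold higher were 5 members (Atf3, Maff, Fosl1, Fos and Jun), against 1.79% of all genes tested. In a fit of single probe sets 11 of the 14 tested for these genes were higher (2 of them, of Fosl2 and Batf, near-constant) and 0 lower, against 22.7% and 19.7% of all probe sets. The median log2 change of the 9 varying members was 1.23, against 0.03 over the 6339 varying genes. Among members well above the filter on low signal (6.61 on the log2 scale) in Sham, Fos was 2.88-fold, Jun 2.34-fold and Junb 1.67-fold higher. Atf3, Maff and Fosl1 were 5.03-fold, 3.06-fold and 2.94-fold higher as measured, but all their Sham values lay below that filter, where an array can understate a fold, so their sizes are not ranked against the others. Fosb, at 2.32-fold, did not pass, and its MCAO rats differed widely. Fosl2 was 1.15-fold higher, and Jund had a change of -0.03. The count of 8 members, Batf included, came to 5 without Sham 2 and 5 without Sham 3, where Batf did not pass. Without MCAO 4 it was 8, again with Batf. All genes called higher were 2142 of 12144, 2215 of 12147 and 2856 of 12140 in these fits.

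**Figure D1:**
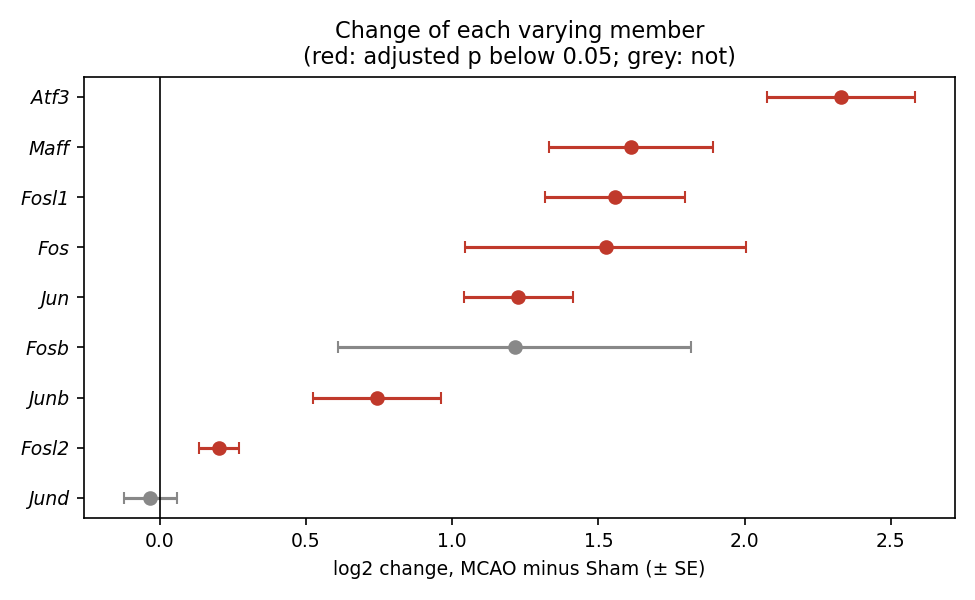
Log2 change (MCAO minus Sham, x axis) of the 9 varying AP-1 genes (y axis), with the standard error from the limma fit as bars (7 MCAO and 5 Sham rats). Red genes passed an adjusted p of 0.05 and grey genes did not: Atf3 lies farthest right at 2.33, Jund lies at -0.03, and Fosb has the widest bar (SE 0.60).

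The arrays had medians between 7.23 and 7.27 on the log2 scale, and their number limits the precision. Neuronal, astrocyte and oligodendrocyte transcripts were well above the filter of 6.61, as with Snap25 (13.31 in Sham), Gfap (10.69) and Mobp (12.83), as the labelled tissue has them. MCAO 4 had the smallest shift of the MCAO rats, at the low end of a graded spread. Over 1216 called genes with an absolute log2 change of at least 0.5, its median shift from the Sham mean was 0.50 of the group's mean change, where the other MCAO rats lay between 0.71 (MCAO 2) and 1.37 (MCAO 6). Results are therefore given with and without MCAO 4 where it matters. Of 10 blood leukocyte markers 9 were tested and 8 varied, and all 8 were higher in MCAO, with a summed linear signal of 2471 to 5463 against 1120 to 1388 in Sham. Whether blood cells or resident cells gave this signal was not tested. The T cell marker Cd3e was near-constant, at 6.94 in both groups. Of 9 neuronal markers 5 were lower and 0 higher, with a summed signal of 20382 to 26324 against 26064 to 28082. Of 6 microglia markers 4 varied, with 2 higher and 2 lower, and their summed signal was 690 to 1086 in MCAO and 934 to 1183 in Sham. Of 7 endothelial markers 5 varied, with 4 higher (Esam 0.59, Kdr 0.53, Pecam1 0.41 and Flt1 0.33) and 0 lower. Cldn5, the other varying one, leaned downward at -0.16 without being called (limma adjusted p = 0.153). The summed endothelial signal was 1563 to 2068 in MCAO against 1341 to 1636 in Sham. Of 7 astrocyte markers 6 varied: Gfap was higher, Slc1a3 (-0.28), Gja1 (-0.32) and Aldh1l1 (-0.78) were lower, and the summed signal was 18441 to 21688 against 17575 to 18239. For all these marker counts, the shares over all varying genes tested were 35.2% higher and 34.2% lower. The part of these markers in the AP-1 results was not tested. The 3' minus 5' signal of the beta-actin controls, a measure of RNA integrity, was 1.27 to 1.47 in 6 MCAO rats and 1.40 to 1.46 in Sham (exact two-sided permutation p = 0.13, without MCAO 6).

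Atf3, which is induced by many kinds of cell stress and can act as a repressor or an activator, had the widest separation between the groups. Its log2 signal was 6.02, 6.03, 5.83, 5.98 and 5.93 in the 5 Sham rats. In the 7 MCAO rats it ran from 7.11 through a median of 8.33 to 8.80. The lowest MCAO rat, MCAO 4, thus lay above the highest Sham rat, and the other 6 lay between 8.23 and 8.80. The log2 change was 2.33 ± 0.25 (SE), from 5.96 ± 0.08 (SD, n = 5) to 8.29 ± 0.56 (SD, n = 7; limma adjusted p = 0.000395). All 5 Sham values were below the filter of 6.61, so Atf3 was tested because it was high in MCAO, and the same holds for Fosl1 and Maff. Without any filter on low values all of them passed as well (limma adjusted p = 0.00045, 0.00179 and 0.00252).

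Fosl1 encodes Fra-1, a Fos protein that lacks the strong activation domain of Fos and accumulates later. Its signal in Sham was 6.42, 6.41, 6.38, 6.55 and 6.55. In MCAO it ran from 6.93 (MCAO 4) through 8.09 to 8.57 (MCAO 1). No MCAO rat overlapped the Sham rats, and apart from MCAO 4 the lowest MCAO value was 7.91. The log2 change was 1.56 ± 0.24 (SE; limma adjusted p = 0.00156) and became 1.74 without MCAO 4.

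Jun is the main partner of the Fos proteins and a target of the JNK kinases. It was read by 3 probe sets. The one with the highest signal gave 9.23, 8.95, 8.99, 9.17 and 9.10 in Sham and 9.43 (MCAO 4), a median of 10.41 and 10.62 (MCAO 6) in MCAO. The groups did not overlap, and 6 of the 7 MCAO rats lay within a narrow band from 10.27 to 10.62. The change was 1.23 ± 0.19 (SE; limma adjusted p = 0.00153). The other probe sets gave 1.17 and 0.82, and in neither did the groups overlap.

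Maff encodes a small Maf protein without an activation domain, which pairs with NRF2 and related factors. Its signal was 6.23, 6.05, 5.96, 6.17 and 6.29 in Sham, and 6.53 (MCAO 4) through 7.78 to 8.52 (MCAO 1) in MCAO. The groups did not overlap, although MCAO 4 came close to the Sham rats. The change was 1.61 ± 0.28 (SE; limma adjusted p = 0.00221). Complete separation upward, as in Atf3, Fosl1, Jun, Maff and the near-constant Batf, was seen in 10.8% of all genes tested and in 17.9% of varying genes.

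**Figure D2:**
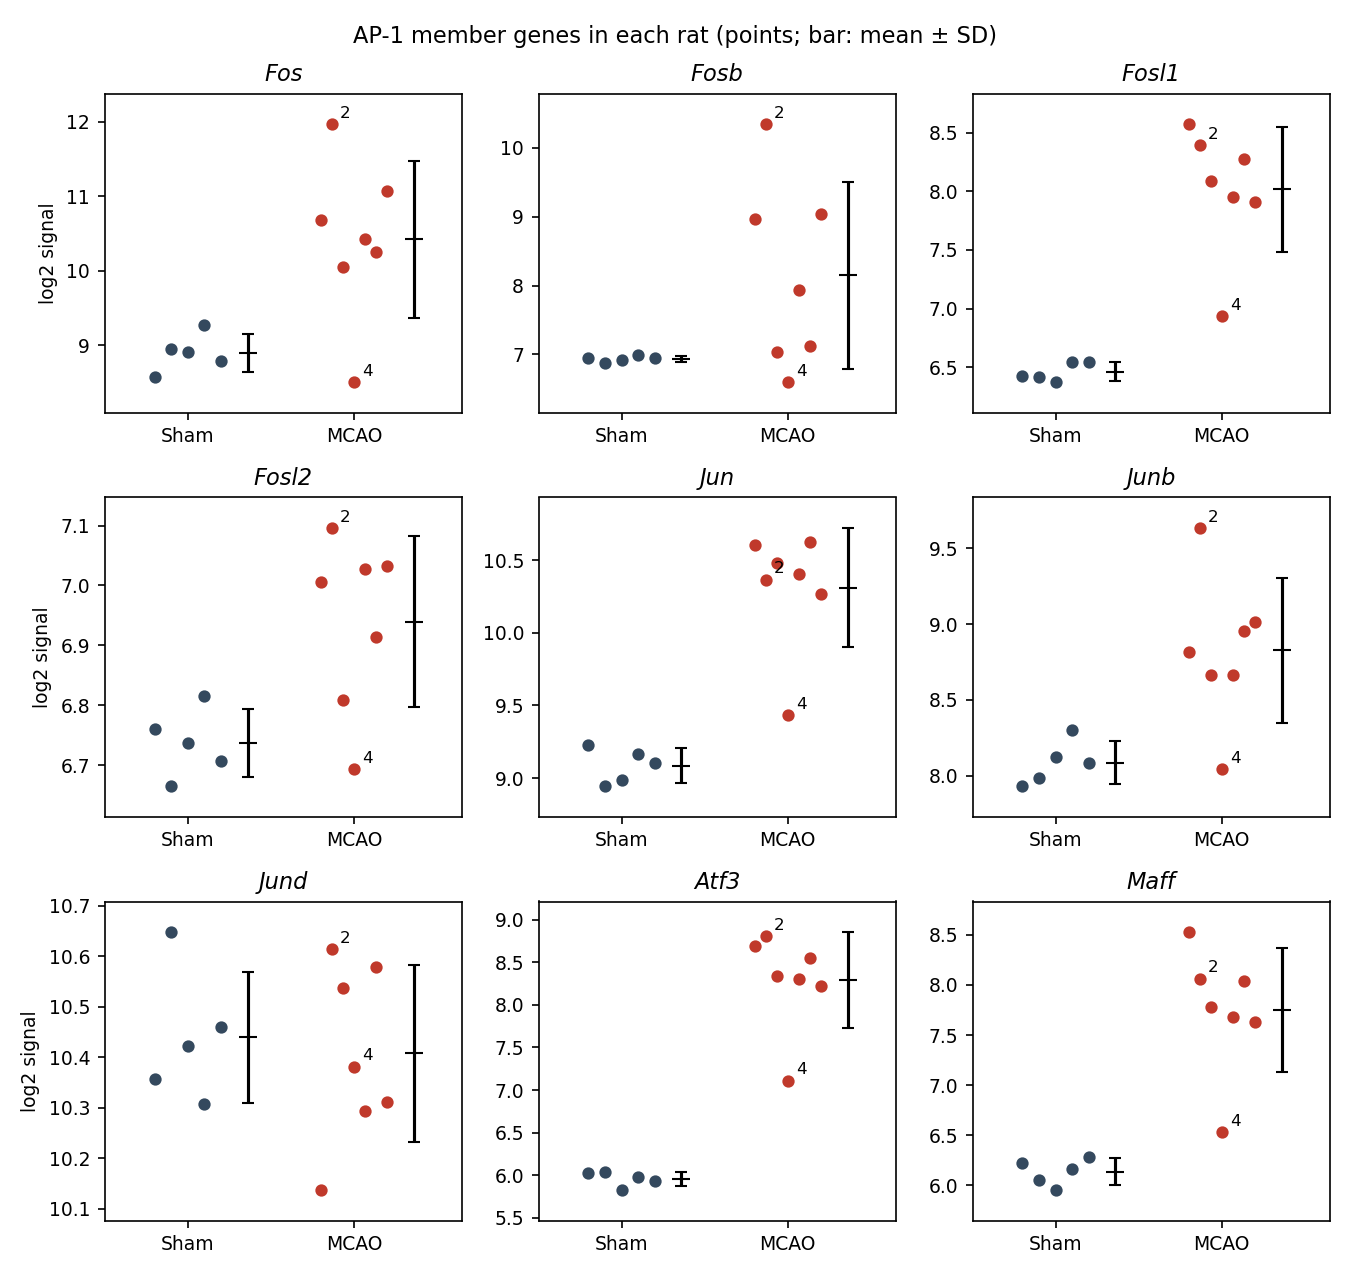
Log2 signal (y axis) of the 9 varying AP-1 genes in each Sham (blue, n = 5) and MCAO (red, n = 7) rat, with the mean and SD as a bar beside each group; MCAO rats 2 and 4 are numbered, and each panel has its own scale. In Atf3, Fosl1, Jun and Maff the groups do not overlap, while in Fos and Fosb rat 4 lies below all Sham rats and rat 2 lies highest.

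Fos, the prototype of the family, was less uniform. Its Sham signal was 8.57, 8.95, 8.90, 9.27 and 8.78. In MCAO it was 8.51 at the lowest (MCAO 4), 10.43 at the median and 11.97 at the highest (MCAO 2). In MCAO 6 rats lay above every Sham rat, and MCAO 4 lay below every Sham rat. The log2 change was 1.52 ± 0.48 (SE; limma adjusted p = 0.0261). Its SD in MCAO was 1.06, the 13th largest of the 12153 genes, against 0.26 in Sham. The change was 1.84 without MCAO 4 and 1.27 without MCAO 2, and it passed in both cases. It missed the threshold without Sham 1, 2, 3 or 5 (limma adjusted p = 0.0569, 0.0522, 0.0533 and 0.0507) and in an exact rank-sum test (adjusted p = 0.085). A further Fos probe set was near-constant at 6.58, below the filter in all 12 arrays.

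Fosb, whose truncated product ΔFosB is a long-lived marker of repeated neuronal activity, spread even more. The Sham rats were almost alike, at 6.95, 6.88, 6.91, 6.99 and 6.95. The MCAO rats ran from 6.60 (MCAO 4) through 7.93 to 10.34 (MCAO 2). The Fosb signals of MCAO 3 and MCAO 6 were only 0.09 and 0.19 above the Sham mean, whereas MCAO 1, 2 and 7 were 2.04, 3.41 and 2.10 above it. The SD of 1.35 in MCAO was the 5th largest of all genes tested. The log2 change of 1.21 ± 0.60 (SE) did not pass (limma adjusted p = 0.129). Without MCAO 4 it was 1.47 and without MCAO 2 it was 0.85, and it passed in neither case, whereas with array weights it passed at 1.01 (limma adjusted p = 0.0437). The array annotation does not say whether this probe set separates the full-length from the truncated transcript.

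Junb, a Jun protein that often restrains Jun, lay between both patterns. Its Sham signal was 7.93, 7.99, 8.12, 8.30 and 8.08, and its MCAO signal ran from 8.04 (MCAO 4) through 8.82 to 9.63 (MCAO 2). MCAO 4 lay inside the Sham range and the other 6 MCAO rats lay above it. The change was 0.74 ± 0.22 (SE; limma adjusted p = 0.0197).

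Fosl2, which encodes Fra-2, changed little. Its signal was 6.76, 6.67, 6.74, 6.82 and 6.71 in Sham, and 6.69 through 7.01 to 7.10 in MCAO. Of the MCAO rats 5 lay above the Sham range and 2, MCAO 3 and MCAO 4, lay within it. The change of 0.20 ± 0.07 (SE) passed narrowly (limma adjusted p = 0.032) and was lost when any of 7 single rats was left out (MCAO 1, 5 or 7, or Sham 1, 2, 3 or 5; highest adjusted p = 0.079). It was also lost in the exact rank-sum test (adjusted p = 0.085). A further Fosl2 probe set was near-constant at 6.67.

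Jund, a Jun protein present in resting cells, did not pass in any probe set tested. Its main probe set gave 10.36, 10.65, 10.42, 10.31 and 10.46 in Sham and 10.14 (MCAO 1) through 10.38 to 10.61 (MCAO 2) in MCAO, and the groups overlapped broadly. The change was -0.03 ± 0.09 (SE; limma adjusted p = 0.825). Another probe set ran from 6.31 to 7.66 in MCAO and from 6.48 to 7.12 in Sham, with a change of 0.11, so the sign depended on the probe set. The last was near-constant at 6.45 and below the filter. Batf, which acts mainly in lymphocytes and dendritic cells, was near-constant at 6.67 in all 12 rats (SD over the arrays 0.00025). Its nominal change of 0.00033 passed (limma adjusted p = 0.031), and it turned negative when the arrays were rescaled by quantiles, medians or 75th percentiles. In all, 4 of the 16 probe sets were near-constant.

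The members did not change equally. For each pair of varying genes within the Fos family, within the Jun family and for Atf3 with Maff, 10 pairs in all, the difference of their log2 signals was compared between the groups with exact permutation, two-sided, using every split of the rats into 7 and 5 (smallest possible p = 0.00126). The measured change of Fosl1 exceeded that of Fosl2 by 1.35 on the log2 scale (exact permutation p = 0.00126, adjusted p = 0.00421). All Sham values of Fosl1 lay below the filter, and those of Fosl2 were near it (6.67 to 6.82). The size of this difference is therefore not read as a ranking of their rises. Jun rose more than Jund by 1.26, with the same p-values. The measured change of Atf3 exceeded that of Maff by 0.72, again with the same p-values, but the Sham values of both lay below the filter, so this does not rank their rises. Junb rose more than Jund by 0.77 (exact permutation p = 0.0101, adjusted p = 0.0253). The measured change of Fos exceeded that of Fosl2, whose signal lay near the filter, by 1.32 (exact permutation p = 0.0139, adjusted p = 0.0278). This call was lost without MCAO 5 and without any single Sham rat (exact permutation, highest adjusted p = 0.0667). The difference of 0.48 between Jun and Junb did not pass over all rats (exact permutation p = 0.0391, adjusted p = 0.0652) and passed without MCAO 2, where it was 0.61 (exact permutation, adjusted p = 0.0162). The Junb and Jund difference was lost without Sham 2 (exact permutation, adjusted p = 0.0606). Between Fos and Fosl1 the difference was -0.03, with an SD of 0.72 among MCAO rats and 0.24 among Sham rats. Fos and Fosb differed by 0.31 (exact permutation, adjusted p = 0.396), Fosb and Fosl1 by -0.34 (adjusted p = 0.585) and Fosb and Fosl2 by 1.01 (adjusted p = 0.135), the last of which passed without MCAO 4 (1.23, exact permutation, adjusted p = 0.0397).

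**Figure D3:**
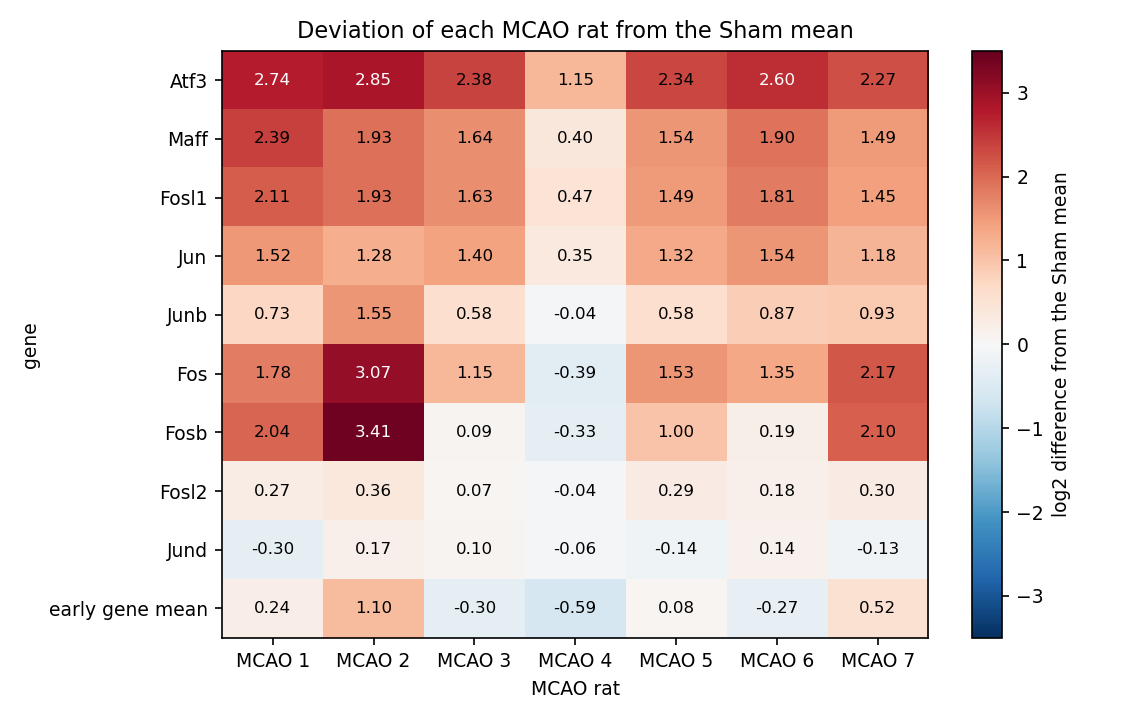
Log2 difference of each MCAO rat (columns) from the Sham mean for the 9 varying AP-1 genes and for the mean of 12 activity-dependent early genes (rows); red is above and blue below the Sham mean, and each cell prints its value. The MCAO 4 column is the lowest for every gene but Jund, and MCAO 2 is highest for Fos (3.07) and Fosb (3.41) but not for Jun (1.28).

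The order of the rats differed between genes. Fos, Fosb, Junb, Fosl2, Jund and Atf3 were highest in MCAO 2 (Atf3 at 2.85 above the Sham mean, with MCAO 1 next at 2.74), whose median shift over all strongly changed genes was the second lowest (0.71), while Jun was highest in MCAO 6, the rat with the largest overall shift (1.37), and Fosl1 and Maff were highest in MCAO 1. Among the 7 MCAO rats each varying member was set against the mean of 12 activity-dependent early genes such as Egr1, Egr2, Arc and Nr4a1, and against its relatives, 19 relations in all with exact permutation p-values. Fos and Fosb ranked the 7 rats in exactly the same order as the early gene mean. For Fos, Pearson's r was 0.93 (n = 7, exact permutation p = 0.00198, adjusted p = 0.0098) and Spearman's rho was 1.0 (p = 0.000397, the smallest possible, adjusted p = 0.00251). For Fosb, r was 0.98 (n = 7, exact permutation p = 0.000198, adjusted p = 0.00377) with the same rho. Without MCAO 2 and MCAO 4, the rats farthest from the median, r was still 0.98 for Fos and 0.96 for Fosb.

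Fosl2 also followed the early gene mean, within its small range (r = 0.88, rho = 0.96, n = 7, exact permutation p = 0.00873 and 0.00278, adjusted p = 0.0236 and 0.00754), with r = 0.92 without MCAO 3 and 4. Leaving out MCAO 3, 4 or 7 alone gave r = 0.87, 0.86 and 0.87 and ended that call (exact permutation, adjusted p = 0.0565, 0.098 and 0.0716). Junb had r = 0.88 (n = 7, exact permutation p = 0.00992, adjusted p = 0.0236) and rho = 0.82 (p = 0.0341, adjusted p = 0.0811), but r fell to 0.43 without MCAO 2 and 4, so the relation rests on those rats. It also missed the threshold without any single one of MCAO 2, 3, 4 or 7 (exact permutation, adjusted p = 0.187, 0.0693, 0.098 and 0.0726). For Jun, r was 0.35 and rho was -0.04 (n = 7, exact permutation p = 0.43 and 0.963, adjusted p = 0.48 and 1.0), and without MCAO 4 r was -0.60. For Atf3, Fosl1 and Maff r was 0.64, 0.56 and 0.51 (n = 7, exact permutation p = 0.127, 0.189 and 0.233), and without MCAO 4 it was 0.45, 0.22 and 0.11. Whether these coefficients differ from those of Fos and Fosb was not tested.

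**Figure D4:**
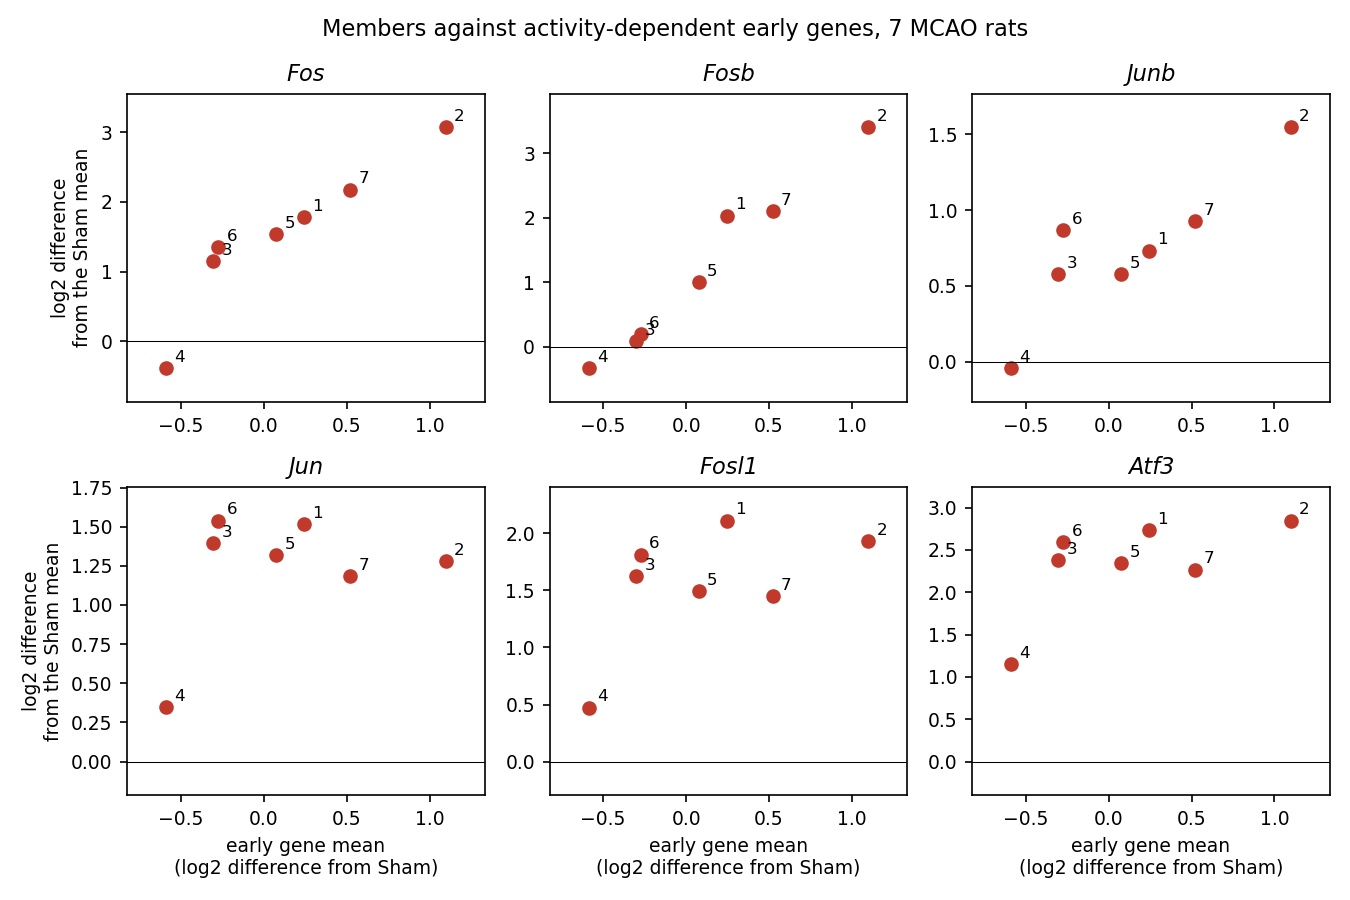
Log2 difference from the Sham mean for Fos, Fosb, Junb, Jun, Fosl1 and Atf3 (y axes) against the mean of 12 activity-dependent early genes (x axes) in the 7 MCAO rats, each point labelled with its rat number. Fos (r = 0.93) and Fosb (r = 0.98) ascend from rat 4 to rat 2 in the same order as the early gene mean, while Jun (r = 0.35) is nearly level apart from rat 4.

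Between members, Atf3 and Maff varied together (r = 0.96, rho = 0.96, n = 7, exact permutation p = 0.00258 and 0.00278, adjusted p = 0.0098 and 0.00754). Without MCAO 2 and 4 their r was 0.97, and without MCAO 4 alone it was 0.82 and no longer passed (exact permutation, adjusted p = 0.098). Fos and Fosb had r = 0.90 and rho = 1.0 (n = 7, exact permutation p = 0.00258 and 0.000397, adjusted p = 0.0098 and 0.00251), and r = 0.93 without MCAO 2 and 4. Fos and Fosl2 had r = 0.93 and rho = 0.96 (n = 7, exact permutation p = 0.000595 and 0.00278, adjusted p = 0.00565 and 0.00754), with r = 0.82 both without MCAO 2 and 4 and without MCAO 4 alone, the last of which did not pass (exact permutation, adjusted p = 0.115). Fosb and Fosl2 had r = 0.87 and rho = 0.96 (n = 7, exact permutation p = 0.00992 and 0.00278, adjusted p = 0.0236 and 0.00754), and r = 0.82 without MCAO 2 and 4. The call on their r was lost without any single one of MCAO 1, 2, 3, 4 or 7 (exact permutation, highest adjusted p = 0.098). Fos and Fosl1 had r = 0.78 and rho = 0.46 (n = 7, exact permutation p = 0.0617 and 0.302, adjusted p = 0.125 and 0.442), and r = -0.12 without MCAO 2 and 4. Jun and Junb had r = 0.62 and rho = 0.14 (n = 7, exact permutation p = 0.218 and 0.783, adjusted p = 0.295 and 0.929), and r was -0.34 without MCAO 4.

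Promoter sequence was at hand for 7 of the 10 genes (RefSeq, build GRCr8), and the 250 bases before the annotated start were searched on both strands for the AP-1 site TGACTCA, the cyclic AMP response element TGACGTCA and the CArG box of serum response factor, and on the gene's strand for the TATA motif TATAAA. TGACGTCA, a sequence bound by ATF and CREB proteins and some AP-1 pairs, was found in 2 of the 7, Maff and Jund, against 1.59% of 33469 promoters. TATAAA was found in Junb alone of the 7 and in 8.06% of all promoters. TGACTCA and the CArG box were in 0 of the 7, against 4.05% and 1.5% of all. No promoter sequence was at hand for Fos, Jun and Atf3, so these counts do not cover them. The 3 promoters with a match are shown, because Maff and Jund share the same element and differed in their response, with a log2 change of 1.61 against -0.03. They lie at chr7:112792537-112792786 (plus strand) for Maff, chr16:18769772-18770021 (minus strand) for Jund and chr19:40080876-40081125 (plus strand) for Junb, and are written 5′ to 3′ with the matched motif in capitals. The element begins 51 bases before the start in Maff and 221 before it in Jund, and the TATA motif begins 49 bases before the start in Junb.
Maff: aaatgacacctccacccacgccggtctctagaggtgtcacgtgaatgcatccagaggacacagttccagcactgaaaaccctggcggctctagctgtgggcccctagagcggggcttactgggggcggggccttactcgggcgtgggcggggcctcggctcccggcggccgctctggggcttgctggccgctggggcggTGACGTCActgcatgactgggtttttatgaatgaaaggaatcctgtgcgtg
Jund: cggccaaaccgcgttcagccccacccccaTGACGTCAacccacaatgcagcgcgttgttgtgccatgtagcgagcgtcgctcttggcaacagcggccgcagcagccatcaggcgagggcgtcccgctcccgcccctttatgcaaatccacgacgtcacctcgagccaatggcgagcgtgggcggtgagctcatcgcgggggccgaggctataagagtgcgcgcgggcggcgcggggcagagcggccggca
Junb: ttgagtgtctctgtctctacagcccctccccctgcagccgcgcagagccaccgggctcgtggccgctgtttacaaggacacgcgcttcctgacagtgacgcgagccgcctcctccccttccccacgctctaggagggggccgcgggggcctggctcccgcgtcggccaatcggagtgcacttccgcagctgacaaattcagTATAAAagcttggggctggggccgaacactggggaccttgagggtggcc

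Other genes of the AP-1 pathway were taken from named lists. Of 18 genes for bZIP relatives and partners, 15 were tested and 11 varied, with a median log2 change of 0.46. Of these 11, 7 were higher and 1 lower, against 35.2% higher and 34.2% lower among all varying genes tested. Nfe2l2, which encodes the oxidative stress factor NRF2 and a partner of Maff, rose by 0.46 ± 0.07 (SE; limma adjusted p = 0.00148). Atf4 (0.74 ± 0.13) and Ddit3 (0.51 ± 0.09), both of the integrated stress response, rose as well, while Nfe2l1, a regulator of proteasome genes, fell by 0.19. The other 4 tested, Batf2, Batf3, Jdp2 and Mafg, were near-constant.

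Of 23 genes of the MAP kinase cascade and serum response, 16 were tested and 12 varied, with 4 higher, 4 lower and a median of 0.04. Both counts are near the background of 35.2% higher and 34.2% lower among all varying genes, so they are no result about the cascade, and the genes below are given for their own values. Mapkapk2, a kinase downstream of p38 (0.58 ± 0.08), Map3k1 (0.31 ± 0.05) and the p38 activator Map2k3 (0.79 ± 0.15) rose. Map3k12, the axon injury kinase DLK, fell by 0.32, Mapk8, which encodes JNK1, by 0.31, and Map2k6, another p38 activator, by 0.53. The count of lower genes was 2 without any single one of MCAO 1, 3, 5 or 6 or of Sham 2, 3 or 4, and the Map2k6 call was lost in 9 of 12 leave-one-out fits (highest limma adjusted p = 0.0608).

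Most activity-dependent early genes did not pass. Of 15 listed, 12 were tested, all varying, with a median of -0.25. In this list 2 were higher, 1 was lower and 9 did not pass, against 35.2% higher and 34.2% lower among all varying genes tested. Ier3 (1.46 ± 0.20) and Ier2 (0.93 ± 0.16), early genes of stress and growth signals, rose. Ier5 had a change of 0.48 (limma adjusted p = 0.0683), which was 0.62 and passed without MCAO 4. Homer1, whose short form is induced by synaptic activity, fell by 0.34, but its sign turned with the mean of its probe sets (0.079) and with the most variable one (0.72). Nr4a2 and Nr4a3, orphan nuclear receptors, had changes of -0.31 and -0.32 and did not pass. The mean of the 12 genes was 1.10 above the Sham mean in MCAO 2 and 0.59 below it in MCAO 4, with the remaining rats between -0.30 and 0.52. Without MCAO 2 the count of lower genes was 4 in place of 1.

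**Figure D5:**
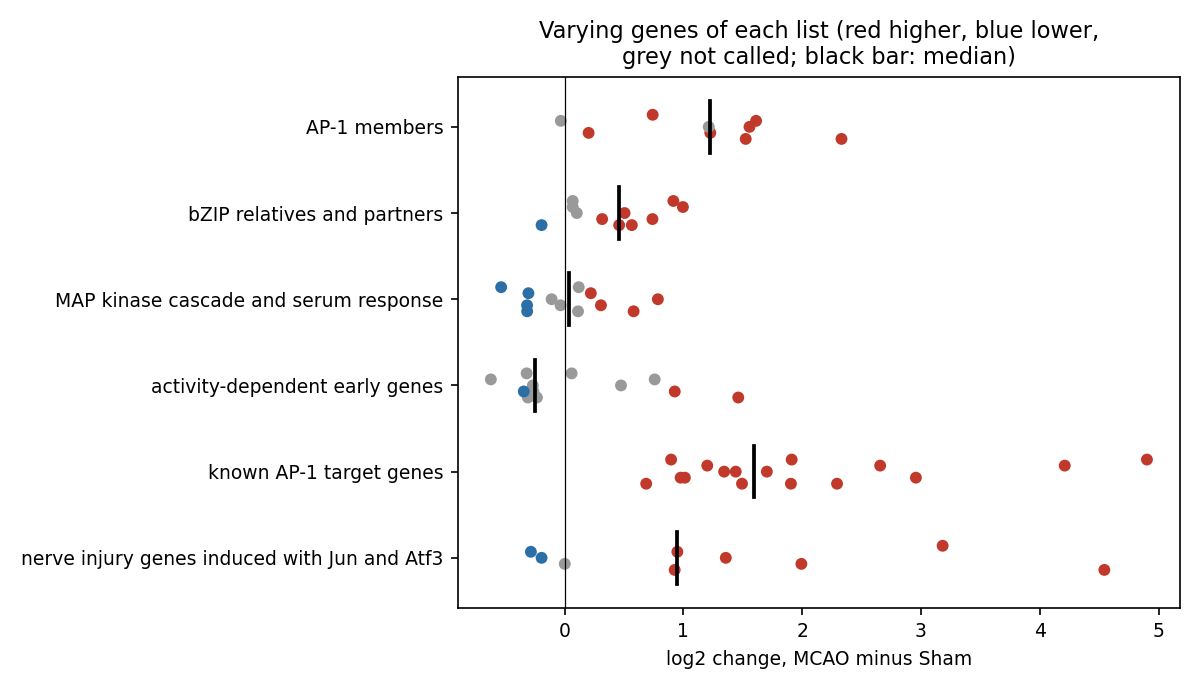
Log2 change (MCAO minus Sham, x axis) of every varying gene of the AP-1 members and of 5 pathway lists (rows), with red for genes called higher, blue for lower, grey for not called and a black bar at the median. All 16 varying AP-1 target genes are higher, with a median of 1.60, while the activity-dependent early genes have a median of -0.25.

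Genes known as AP-1 targets in other systems were higher in MCAO. Several of them were already known to be higher in these rats when the list was made, so it is no independent support. Of 21 listed, 18 were tested and 16 varied, and all 16 rose, with changes from 0.69 to 4.90 and a median of 1.60. The share called higher among all varying genes tested was 35.2%. Gfap, the astrocyte filament gene (1.91 ± 0.12), Hmox1, which degrades heme (2.96 ± 0.27), and Mt2A, a metal-binding protein gene (1.70 ± 0.16), had the strongest statistics. Many of these genes answer to NF-kB, STAT3 or NRF2 as well, and the part of AP-1 in them was not tested. They also include genes of phagocytes and astrocytes. The blood leukocyte markers above were higher in the same rats, while 3 of the other astrocyte markers were lower. The 2 near-constant targets were the death genes Hrk (7.66 in both groups) and Bcl2l11 (7.09 and 7.10).

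Of the genes known to be induced together with Jun and Atf3 in injured nerves, some were higher and some lower. All 11 listed were tested and 9 varied, with 6 higher, 2 lower and a median of 0.95. Among all varying genes tested, 35.2% were higher and 34.2% lower. The lower count does not exceed that share, so it is no result about the list. The small heat shock protein gene Hspb1 (4.54 ± 0.28), the DNA damage gene Gadd45a (1.99 ± 0.21) and the neuropeptide gene Gal (1.36 ± 0.21) rose. Stmn2, a tubulin-binding protein gene of growing axons, fell by 0.28 and the neuronal tubulin gene Tubb3 by 0.19. Of the 9 neuronal markers given above, 5 were lower, 0 were higher and 4 did not pass in the same rats, and their part in these falls was not tested. Gap43, another axon growth gene, chosen after its value was seen, was near-constant at 11.94.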

How the data were processed

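Values were taken from the deposited table of 31099 probe sets on 12 arrays (7 MCAO, 5 Sham); per the labels' protocols, 100 ng of total RNA went into each biotin-labelled cRNA. The table's log2 values were made by the authors; the log base was judged from their range, while the method of background correction, summarization and normalization is not given in the sources used here. They were used as deposited, since array medians spanned 0.05. Of the probe sets without controls, 62.5% were near-constant (SD over 12 arrays under 0.01), which were kept in the tests and counted apart. Such values cannot show a change, and the reason for them was not tested. The control rows of MCAO 6 are misaligned (0 of 40 near-constant controls within 0.05 of the other arrays), whereas all 19398 near-constant gene probe sets of that array matched. There were 20826 probe sets with 1 gene, 436 with several and 9780 with none; the latter kinds were left out. Probe sets had to exceed 6.61 (the 25th percentile) in at least 5 arrays, and the probe set with the highest mean stood for each gene. For the 12153 genes MCAO was set against Sham in R 4.3.3 by limma 3.58.1 (lmFit, eBayes with an intensity trend, two-sided, Benjamini-Hochberg), and every probe set in a second fit of 17238. Differences and correlations between members used exact permutation tests (Python 3.11.15), which were, like the limma fit, tested on simulated data. Labels do not call the rats separate litters or cohorts, so p-values measure the spread between these rats.

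The members and lists were chosen with earlier results of these data known. All 10 members are named, and of each pathway list the 3 varying genes with the strongest positive and the 3 with the strongest negative limma statistic. The alternatives, whose effect is given below, were other scalings, filters, probe set choices, eBayes settings, array weights, a replicate block, rank-sum testing (exact) and fits without each rat in turn.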

Additional observations from a re-analysis of the deposited data

Results flagged for a closer look

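Of 24 groups of member values checked, 5 had a rat far from the others by Dixon's test, where chance gives about 1 in 20; all 5 were MCAO 4, and 3 of them are probe sets of the same gene. MCAO 4 lay low for Atf3 (7.11), for Fosl1 (6.93) and for the Jun probe sets (9.43, 9.49 and 8.09). In each case it still lay above all Sham rats. The gap to the next rat was 0.66 of the MCAO range for Atf3, 0.60 for Fosl1 and 0.62 to 0.70 for Jun, against a critical value of 0.568. For Fos and Fosb, where the other rats spread widely, MCAO 4 was lowest as well but was not singled out.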

How the results depend on the processing

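Of 1593 recomputed values 1479 kept their direction and their side of the threshold (or, for counts, stayed within 1.5 times), 60 lost their call, 8 gained one, 23 changed sign and 23 moved; the cause was not tested unless stated. Atf3, Fosl1, Jun and Maff kept their calls without any single rat, with changes of 2.24 to 2.53, 1.46 to 1.74, 1.17 to 1.37 and 1.48 to 1.81 (highest limma adjusted p = 0.00228, 0.0061, 0.0061 and 0.00795). Whether the replicate numbers pair the rats is not known. Same-numbered deviations correlated at 0.32, 0.54, -0.33, -0.05 and 0.16, which cannot decide it, since differently numbered rats were not compared. With the number as a block, which drops the 2 MCAO rats without a Sham partner, 3 members were higher (Maff was not tested), 1553 of all genes were higher and 1528 lower, and 4 bZIP relatives were higher. In that block fit 1 MAP kinase gene, 0 early genes and 1 nerve injury gene were lower, and Fos (1.43), Fosl2 (0.19), Junb (0.68) and Batf (0.00026) did not pass. In the exact rank-sum test 1 MAP kinase gene and 0 early genes were lower, and Fos (1.52) and Fosl2 (0.20) did not pass. With array weights Fosb passed (1.01) and 5 early genes were lower. Under quantile normalization 16 AP-1 targets were higher, the same number as in the main fit. There 1 other was called lower, a call seen in no other setting and not read as a change. Batf was at -4.7e-05 under quantile normalization, while equal medians gave -0.013 and equal 75th percentiles -0.0069 for it. The mean of probe sets gave 0.039 for Jund, 0.079 for Homer1, 0 early genes lower, 0.70 for Junb minus Jund (not passing) and r = -0.14 for Jund with the early genes; the most variable probe set gave 0.11, 0.72, 0, 0.63 (not passing) and -0.22.

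Without single rats, counts ran from 5 to 8 for members higher, where Batf was counted if it passed. They ran from 2 to 5 for MAP kinase genes lower and from 1 to 4 for early genes lower. Changes ran from 1.27 to 1.84 for Fos, 0.18 to 0.24 for Fosl2, -0.066 to 0.020 for Jund and 0.00026 to 0.00037 for Batf. Differences ran from -0.23 to 0.11 for Fos minus Fosl1, 1.09 to 1.60 for Fos minus Fosl2, 0.67 to 1.23 for Fosb minus Fosl2, 0.43 to 0.61 for Jun minus Junb and 0.67 to 0.90 for Junb minus Jund. The r with the early genes ran from 0.86 to 0.92 for Fosl2, -0.60 to 0.50 for Jun, 0.72 to 0.96 for Junb and -0.62 to 0.21 for Jund. Between members it ran from 0.82 to 0.96 for Fos with Fosl2, 0.85 to 0.92 for Fosb with Fosl2, -0.34 to 0.86 for Jun with Junb, -0.10 to 0.39 for Jun with Jund, -0.012 to 0.51 for Junb with Jund and 0.82 to 0.99 for Atf3 with Maff. Signal near or below the filter limits Fosl1, Atf3, Maff, Fosl2 and Fosb in Sham, and near-constant probe sets cannot show a change.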
